A study of Arabidopsis thaliana with 4 samples.

Results

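The transcripts described here are those of 8 ATG8 genes of Arabidopsis thaliana, ATG8A, ATG8B, ATG8C, ATG8D, ATG8E, ATG8F, ATG8G and ATG8I, with the kinase gene ATG1A beside them. They were chosen by name, as ATG8 genes with a probe set of their own on the Affymetrix ATH1 array, by a rule that uses no measured value but was written with earlier results of these data known. Each of the 9 was read by 1 probe set, out of 22810 in the table. The probe sets with a single gene name stood for 13286 genes. The study compared inflorescence tips of the mutant tmm-1 with those of the control line Col-3 gl1, on 2 arrays per line, each array holding a pool of tissue. TMM encodes a receptor-like protein that patterns stomata, and gl1 is a mutation that removes most leaf hairs. All plants were at growth stage 6.10 and were grown at 22 °C, 70% humidity and 16 h of light (125 µmol per m² s). Fertilizer was given at the same concentration in all labels, and no treatment was named in them. The labels give tmm-1 with no gl1 allele, do not say whether the line carries it, and spell the control in the titles as Col1g11. They also do not say whether pools came from separate sets of plants, so the spread between these pools may be technical. The p-values measure only that spread, taken mostly from a trend over all probe sets tested.

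Autophagy encloses portions of cytoplasm in a double membrane, the autophagosome, and delivers them to the vacuole for breakdown. ATG8 is a small ubiquitin-like protein that is joined to phosphatidylethanolamine and so becomes anchored in the growing membrane, where it also binds cargo receptors. The protease ATG4 trims new ATG8 to a terminal glycine, ATG7 and ATG3 then pass it on as activating and conjugating enzymes, and the ATG12-ATG5 conjugate with ATG16 promotes the last step. ATG1 is the kinase whose complex starts the process, downstream of the nutrient-sensing kinase TOR and the energy-sensing kinase SnRK1. Plants carry many ATG8 genes where yeast has a single one, and in Arabidopsis autophagy is known for recycling nutrients in starved, darkened and senescing tissue. ATG8H and ATG8I form a separate clade, whose proteins end at the glycine and need no trimming. In the array annotation the gene named APG8H is ATG8I (AT3G15580), a different locus from ATG8H (AT3G06420), and the gene named APG8A is ATG8A.

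All 9 transcripts were measured above background in both lines. Every one of their 36 signals lay above 21.2, the top value that Bacillus controls reached here (27 probe sets). Signals are the deposited MAS5 values, on a linear scale with a 2% trimmed mean of 100 on each array. Signals of different probe sets were not set against each other, because probe sets differ in how brightly they report a given amount of RNA. In a bulk sample, fewer cells of a type and less RNA per cell cannot be told apart.

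The measured differences had both signs, and none passed the test. Of the 9 genes, 3 had both tmm-1 signals above both control signals (ATG8A, ATG8G and ATG1A), 4 had both below (ATG8B, ATG8E, ATG8F and ATG8I), and in ATG8C and ATG8D the lines overlapped. Among all 16960 probe sets tested, the signals did not overlap in 38.3%, with 21.5% higher and 16.8% lower in tmm-1. Differences were tested with limma across all probe sets on log2(signal + 10), a scale that understates the change of low signals. At an adjusted p below 0.05, limma called 0 of the 9 genes, against 0.613% of all probe sets (0.242% higher and 0.371% lower in tmm-1). Its unadjusted p was below 0.05 for 4 of the 9 (ATG8E, ATG8G, ATG8I and ATG1A), against 8.81% of all. That number depended on the setting, and with all 4 arrays kept it was 3 after quantile normalization (1410 of 16940 probe sets). Only 2, ATG8E and ATG8G, remained with no minimum signal (1638 of 22746 probe sets) or with no variance trend (1293 of 16960). The median log2 change of the 8 ATG8 genes was -0.18 and that of all probe sets 0.03.

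**Figure D1:**
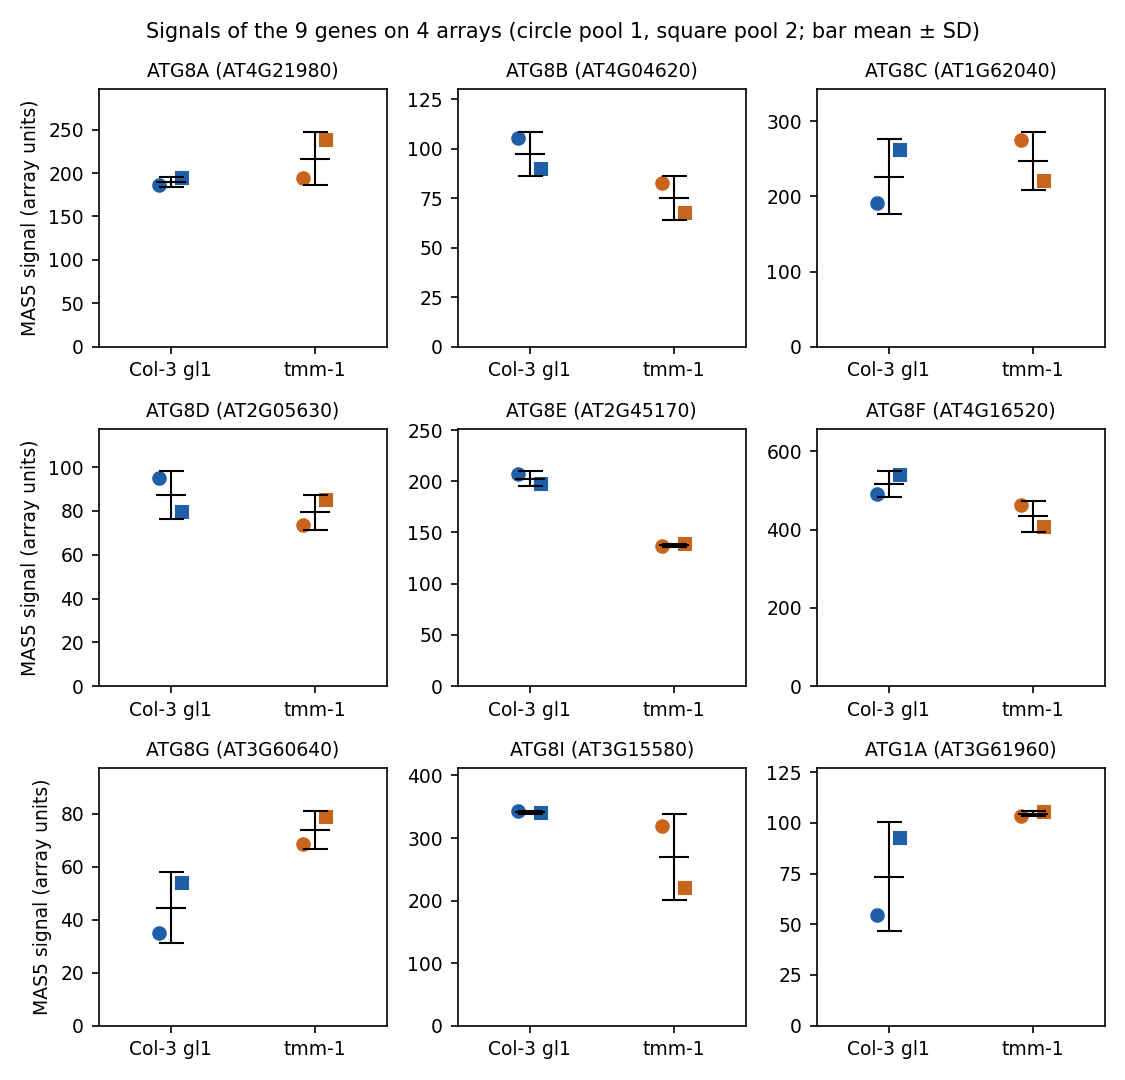
Each panel plots the MAS5 signal of 1 gene in array units, from 0, for Col-3 gl1 (blue) and tmm-1 (orange), with circles for pool 1, squares for pool 2 and bars for the mean ± SD of 2 arrays. ATG8E shows 2 tight, separate pairs (136.7 and 138.8 in the mutant, 207.5 and 197.4 in the control), while ATG8C overlaps and ATG8I and ATG1A each have 1 line with widely spaced pools.

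ATG8E (AT2G45170) had the lowest log2 change of the 9, and in both lines its pools lay within 0.07 of each other on the log2 scale. Its signals were 136.7 and 138.8 in tmm-1 pools 1 and 2, and 207.5 and 197.4 in control pools 1 and 2. The 2 tmm-1 pools lay almost on top of each other, and the gap to either control pool was far wider than the gap within either line. Mean signals were 138 ± 1.46 (SD, n = 2) for tmm-1 and 202 ± 7.15 for the control, which was thus 1.47 times as bright. The log2 change was -0.52 ± 0.16 (SE), with a 95% interval of -0.85 to -0.19. Limma gave an unadjusted p of 0.00318 and an adjusted p of 0.198 over all probe sets, so the gene was not called. With any 1 array left out, the log2 change of ATG8E stayed between -0.56 and -0.49.

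ATG8G (AT3G60640) lay on the other side, with the highest log2 change of the 9. Its signals were 68.7 and 78.9 in tmm-1 against 35.2 and 53.9 in the control. Both mutant pools exceeded both control pools, and the control pools themselves stood apart by 0.50 on the log2 scale. Means were 73.8 ± 7.23 and 44.5 ± 13.3 (SD, n = 2), a ratio of 1.66 of tmm-1 to control. The log2 change was 0.64 ± 0.21 (SE), with a 95% interval of 0.20 to 1.08, and limma's adjusted p was 0.266. It was 0.39 without control pool 1, the dimmer of the controls, and 0.89 without control pool 2.

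ATG8E and ATG8G were thus measured on opposite sides of the bulk of the array, where 90% of probe sets had log2 changes between -0.42 and 0.52. Within each array, the log2 value of ATG8G minus that of ATG8E does not depend on how that array was scaled as a whole, apart from the pseudocount. This difference was -0.90 and -0.74 in the tmm-1 pools and -2.27 and -1.70 in the control pools. The lines could not overlap in it, since ATG8G was higher and ATG8E lower in both tmm-1 pools than in both control pools. It differed by 1.16 between the lines, but the pair was picked for its opposite values. Also, 2 arrays against 2 cannot give an exact two-sided permutation p under 0.333. No difference between the changes of 2 ATG8 genes was therefore shown by a test.

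**Figure D2:**
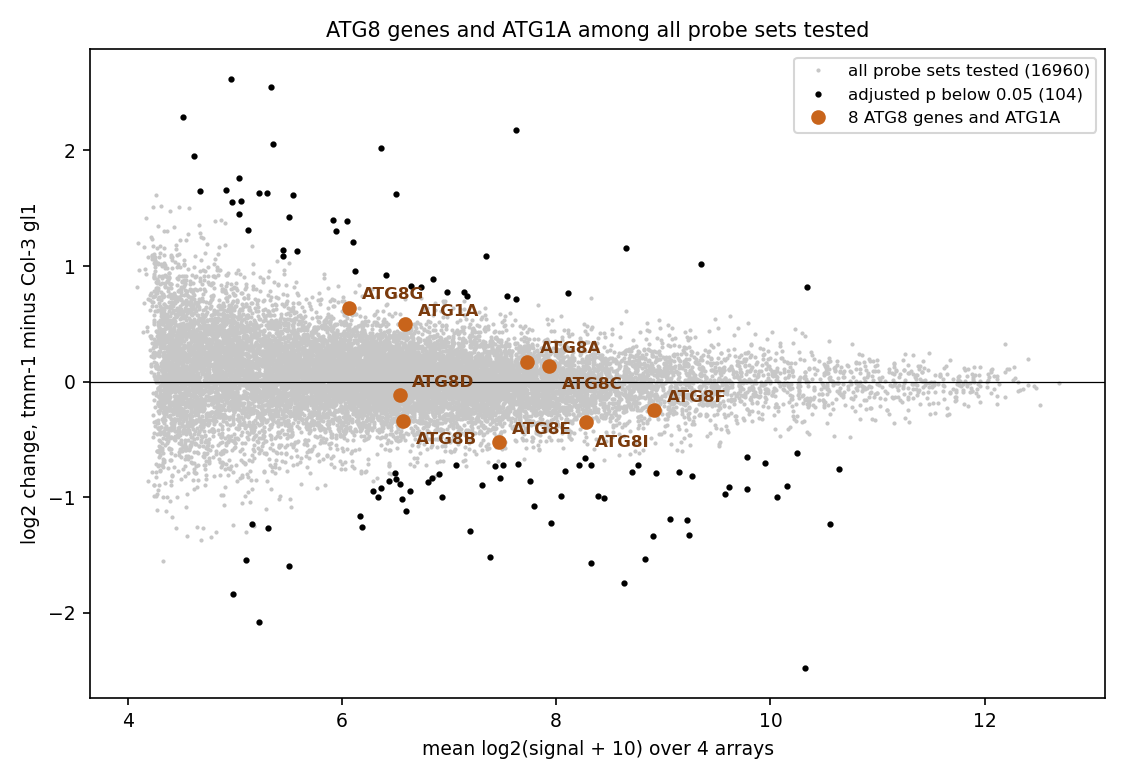
The log2 change (tmm-1 minus Col-3 gl1) is plotted against the mean log2(signal + 10) over 4 arrays for the 16960 probe sets tested (grey), the 104 called at an adjusted p below 0.05 (black) and the 9 genes (orange). ATG8G at 0.64 and ATG8E at -0.52 lie towards the upper and lower edge of the grey cloud, and none of the 9 lies among the black points.

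ATG8I (AT3G15580), of the clade that needs no trimming by ATG4, gave 318.5 and 220.7 for tmm-1, against 342.7 and 339.6 for the control. The control pools agreed closely and the difference rested on tmm-1 pool 2, since pool 1 lay just under the controls. Means were 270 ± 69.2 (SD, n = 2) and 341 ± 2.15, and the log2 change was -0.35 ± 0.17 (SE; 95% interval -0.69 to -0.01; limma's adjusted p = 0.541). Without tmm-1 pool 2 it was -0.10. Without tmm-1 pool 1, which leaves tmm-1 pool 2 as the only mutant array, it was -0.61. Pool 2 of tmm-1 had a median signal of 45.5 over the whole array, against 40.7 to 41.4 on the other arrays. The part of this in the ATG8I value was not tested.

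ATG8B and ATG8F resembled ATG8I in sign, with smaller or less certain differences. The signals of ATG8B (AT4G04620) were 82.8 and 67.4 in the mutant pools, against 105.2 and 89.6 in the control pools. Here the nearest pools of the 2 lines were closer to each other than the pools within each line. Its log2 change was -0.34 ± 0.19 (SE; 95% interval -0.72 to 0.05; limma's adjusted p = 0.639). ATG8F (AT4G16520) gave 462.1 and 405.7 for tmm-1, with 492.0 and 538.9 for the control. The pools of tmm-1 were further apart than its brighter pool was from the nearer control, at a log2 change of -0.24 ± 0.15 (SE; 95% interval -0.55 to 0.06; adjusted p = 0.673).

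ATG8A (AT4G21980) was at 194.8 and 238.4 in the mutant pools, and the control pools were at 186.1 and 194.3. Although the lines did not overlap, tmm-1 pool 1 and control pool 2 differed by less than 1 array unit. The log2 change was 0.17 ± 0.16 (SE; 95% interval -0.16 to 0.50; limma's adjusted p = 0.832), and it was 0.03 without tmm-1 pool 2. For ATG8C (AT1G62040), 274.6 and 220.3 in tmm-1 stood against 191.1 and 261.6 in the control, and the pools of each line straddled one of the other. Its log2 change of 0.13 ± 0.17 (SE; limma's adjusted p = 0.889) turned to -0.02 without tmm-1 pool 1 and to -0.085 without control pool 1. ATG8D (AT2G05630) was at 73.8 and 84.8 in the mutant pools against 94.8 and 79.5 in the control pools, overlapping as well, with a log2 change of -0.12 ± 0.19 (SE; limma's adjusted p = 0.911). The 95% intervals of ATG8C and ATG8D, -0.22 to 0.48 and -0.50 to 0.26, each leave room, in 1 direction, for a difference of the size measured for ATG8I.

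ATG1A (AT3G61960) encodes a kinase of the ATG1 family, which acts at the start of autophagosome formation. Its signals were 103.5 and 105.4 in the mutant pools, against 54.4 and 92.3 in the control pools. The mutant pools were nearly identical and the control pools far apart, by 0.67 on the log2 scale. Means were 104 ± 1.37 (SD, n = 2) and 73.4 ± 26.8, and the log2 change was 0.50 ± 0.20 (SE; 95% interval 0.08 to 0.91; limma's adjusted p = 0.441). Without control pool 1 it was 0.16, and without control pool 2 it was 0.83, so this single control array set most of its size. Control pool 1 was also the lowest of the 4 arrays for ATG8G, ATG8C and ATG8A, and the highest for ATG8B, ATG8D, ATG8E and ATG8I.

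**Figure D3:**
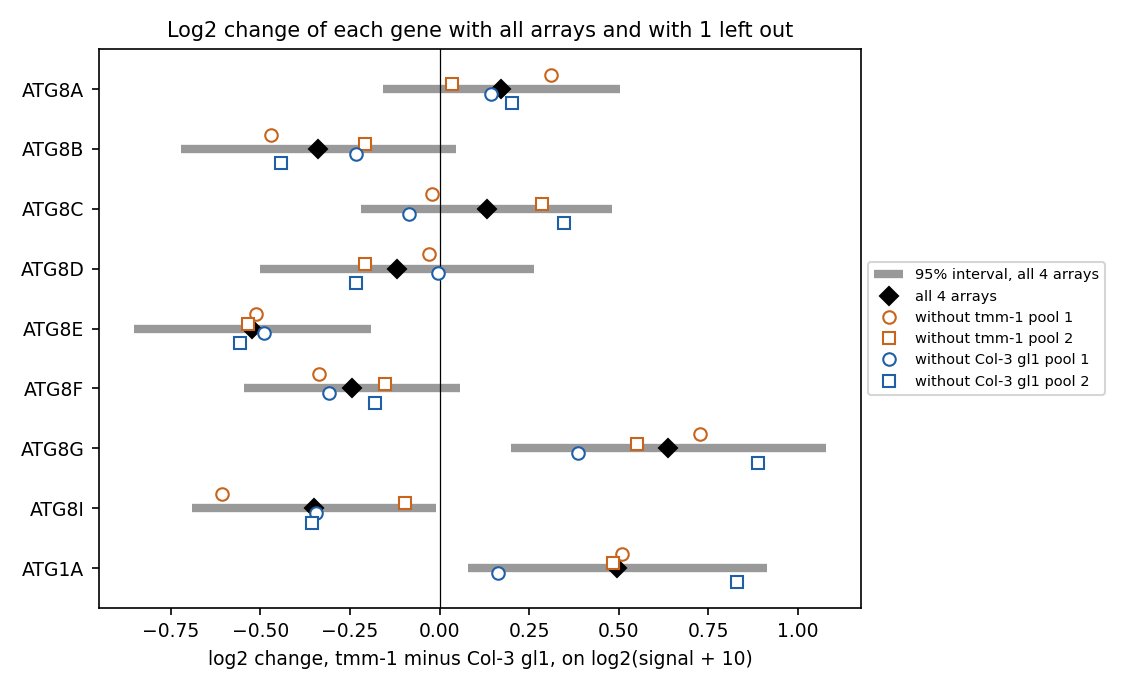
For each gene the log2 change (tmm-1 minus Col-3 gl1) is shown with all 4 arrays (black diamond) with its 95% interval (grey bar), and with 1 array left out (open symbols, orange for a tmm-1 pool and blue for a control pool). ATG8E keeps to -0.56 to -0.49, whereas ATG8C crosses 0 and ATG1A spreads from 0.16 to 0.83.

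A ninth ATG8 gene, ATG8H (AT3G06420), also has a named probe set but is not among the 8. Its signals were 11.5 and 28.3 for tmm-1, with 14.4 and 11.8 for the control, and 3 of the 4 were under the highest Bacillus control signal. Its log2 change of 0.31 ± 0.39 (SE; limma's adjusted p = 0.882) rested on tmm-1 pool 2. The dimmest probe sets of that array were brighter than elsewhere, its 10th percentile being 3.06 where the other arrays had 1.54 to 1.60, and the part of this in the result was not tested. On the same array ATG8I, ATG8B and ATG8F had their lowest signals and ATG8A, ATG8G and ATG1A their highest.

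The rest of the autophagy machinery was described from 42 listed loci, of which 12 had a named probe set. All 12 passed the minimum mean signal of 10. Limma called 0 of them, with 0 at an unadjusted p below 0.05, against 0.613% and 8.81% of all probe sets tested. Their median log2 change was 0.04, with 7 above 0 and 5 below. Over all probe sets tested, the median was 0.03 and 55.0% were above 0. In the ATG1 complex list, 5 of 7 further loci were tested, with log2 changes from -0.55 to 0.49. AT3G18770 had signals of 26.4 and 23.0 in tmm-1 against 16.7 and 12.8 in the control, the latter under the highest Bacillus control signal (0.49 ± 0.34, SE; limma's adjusted p = 0.734). AT1G49180 scattered from 5.91 to 29.1 in tmm-1, and was at 22.0 and 31.8 in the control (-0.55 ± 0.38, SE). ATG101 (AT5G66930), a partner of the ATG1 kinase, was at 108.6 and 112.4 for tmm-1, with 100.9 and 86.8 for the control (0.22 ± 0.18, SE; limma's adjusted p = 0.792).

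The conjugation steps that attach ATG8 to its lipid were measured through 3 of 9 loci, and their log2 changes were narrow, from -0.12 to 0.11. ATG3 (AT5G61500), the conjugating enzyme, had 191.9 and 154.9 for tmm-1, with 164.7 and 173.4 for the control, the control pools lying between those of the mutant (0.03 ± 0.17, SE; 95% interval -0.31 to 0.37). AT3G59950 was at 0.11 ± 0.20 and AT5G50230 at -0.12 ± 0.17 (SE). Of the lipid kinase complex list, 2 of 6 loci were tested. AT2G32760 was at 0.11 ± 0.20 and AT1G77890 at 0.05 ± 0.30 (SE), the latter by its brighter probe set, the other being under the filter. Of 10 loci listed as cargo receptors and ATG8 partners 2 were tested, AT4G34660 at 0.23 ± 0.20 and AT3G43230 at -0.16 ± 0.18 (SE). The listed loci of ATG9, ATG2 and the ATG18 family, 10 in all, are not analysed here, and neither are ATG4A, ATG5, ATG7 and ATG12.

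Upstream of autophagy, 4 of 9 listed genes of the SnRK1 and TOR kinases were tested and 1 was called, against 0.613% of all probe sets. That call was lost with no variance trend, where limma called 0 probe sets. The list was chosen with earlier results of these data known, so its share called cannot be read as an excess. AKINBETA1 (AT5G21170), a regulatory subunit of SnRK1, fell by 1.01 on the log2 scale, from 510.9 and 463.0 in the control to 247.3 and 226.5 in tmm-1 (limma's adjusted p = 3.2e-04). The related subunit gene AT4G16360, which RefSeq also names KINbeta2, had 149.9 and 144.0 for tmm-1, with 137.8 and 118.5 for the control (0.19 ± 0.17, SE; adjusted p = 0.819). RAPTOR2 and RAPTOR1, which encode the scaffold of the TOR complex, were at 0.37 ± 0.22 and -0.18 ± 0.19 (SE). The lines overlapped in both RAPTOR genes.

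**Figure D4:**
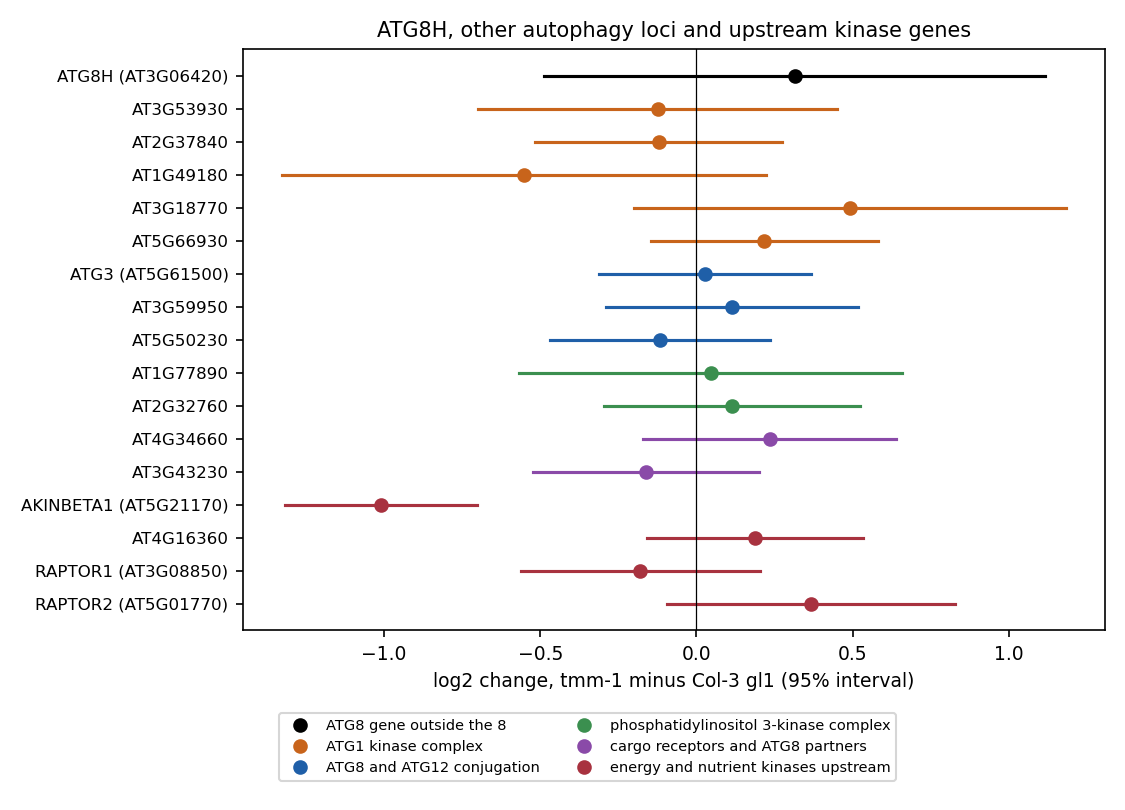
Points are log2 changes (tmm-1 minus Col-3 gl1) with 95% intervals for ATG8H, 12 further autophagy loci and 4 upstream kinase genes, coloured by list; loci without a name in the annotation are given by locus. Only the interval of AKINBETA1, at -1.01, lies clear of 0.

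Genes of dark, low sugar and senescence, conditions in which ATG8 genes are known to be induced, were mostly without a named probe set. AT3G15450, the 1 of 8 dark and low-sugar loci tested, had 3227 and 3475 for tmm-1, with 3527 and 4178 for the control (-0.20 ± 0.14, SE; limma's adjusted p = 0.749). Of 8 senescence genes 3 were tested and 0 called, with WRKY53 at 34.3 and 26.0 for tmm-1, with 21.4 and 16.1 for the control, and SAG101 and WRKY6 overlapping between lines. The labelled tissue could not be checked well, since of 16 listed meristem and flower genes only the stem cell gene CLV3 had a named probe set, with signals of 1.12 to 3.92 on the 4 arrays, under the Bacillus control signal. Of 8 late pollen genes, AT5G45880 was at 1.89 to 3.49 and the tubulin gene TUA1 at 81.9 and 84.5 for tmm-1, with 101.7 and 101.0 for the control (log2 change -0.26 ± 0.18, SE; limma's adjusted p = 0.739). The part of pollen content in the ATG8 values was not tested.

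The mean profile of the 8 ATG8 genes over the 4 arrays was almost flat, because genes with opposite changes cancel in it. On the log2 scale and relative to its own mean it was 0.00 and -0.08 in the tmm-1 pools and 0.00 and 0.08 in the control pools. Among 9410 other named loci, those nearest to it by root mean square difference over the 4 arrays were AT5G66530, AT2G41840, AT1G05575, AT4G36580 and ATATH8 (AT2G39190). Their differences, the smallest by selection, were 0.01 on the log2 scale, where the median over all those loci was 0.19. Nearness to so flat a profile shows no likeness to any single ATG8 gene. Limma called 0 of these 5, and their log2 changes ran from -0.10 to -0.05.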

How the data were processed

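RNA of 4 tissue pools was read on Affymetrix ATH1 arrays. The authors deposited intensity values, linear MAS5 signals made in GCOS per the submitters' processing notes. MAS5 merges all probe pairs of a set into 1 signal. The arrays shared a 2% trimmed mean of 100 and were not scaled again. The number of arrays limits the precision.

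Signals were put on the log2 scale after adding 10. The 64 array controls and probe sets with a mean signal under 10 were left out. Lines were compared with limma 3.58.1 in R 4.3.3 (lmFit, eBayes with a variance trend, two-sided, Benjamini-Hochberg over 16960 probe sets), and the model was tested on simulated data. The SEs and p-values rest mostly on that trend, with 23.6 prior degrees of freedom. The pool number in the titles served as replicate number.

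Names came from the platform annotation, joined through Entrez IDs to RefSeq TAIR10.1. It gave 13513 probe sets 1 gene symbol and 503 several, and did not list 8794. The brightest probe set stood for a locus. ATG1A is named by its locus, as RefSeq gives no symbol.

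The genes and lists were chosen with earlier results of these data known. Named were all 9 genes and, of each pathway list, called members and the 2 with the smallest p. ATG8H, ATG101, ATG3, the further subunit and RAPTOR genes, and the pair ATG8G and ATG8E were added after their values were seen. Alternatives were other pseudocounts, filters, normalizations and variance models, the pool block, and each array left out.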

Additional observations from a re-analysis of the deposited data

How the results depend on the processing

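Of 117 combinations of the 9 genes with 13 alternatives, 114 kept the sign and the side of the threshold. ATG8C turned sign without tmm-1 replicate 1 (-0.02) and when Col-3 gl1 replicate 1 was omitted (-0.085). ATG8I crossed the threshold in 1 of the 13, without tmm-1 replicate 1 (-0.61), where tmm-1 replicate 2 was the only mutant array. That fit also called more of all probe sets than any other setting, and its p-values rest almost wholly on the prior. The crossing is therefore not read as a call of ATG8I, and its cause was not tested. Leaving out 1 array gave log2 changes of 0.03 to 0.31 for ATG8A, -0.47 to -0.21 for ATG8B, -0.085 to 0.35 for ATG8C, -0.23 to -0.0053 for ATG8D, -0.56 to -0.49 for ATG8E, -0.34 to -0.15 for ATG8F, 0.39 to 0.89 for ATG8G, -0.61 to -0.10 for ATG8I and 0.16 to 0.83 for ATG1A. Genes whose lines did not overlap cannot turn sign there. The median over the 8 ATG8 genes was -0.27 with scaling to the median, which put all probe sets at a median of -0.05, and -0.21 to -0.12 with 1 array left out.

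Over all probe sets, limma called 104 (41 higher, 63 lower), 69 (22 higher) after quantile normalization, 17 (5 higher, 12 lower) with no filter, and 0 (0 higher, 0 lower) with no variance trend, where 1293 had an unadjusted p below 0.05. With 1 array left out the number called ran from 77 to 662, the higher ones from 35 to 345 and the lower ones from 42 to 317. The 662 came without tmm-1 replicate 1, and omitting tmm-1 replicate 2 gave 167. There the lone array is assumed to vary like the other line, and the p-values rest almost wholly on the prior. A replicate block on the pool number gave 191 calls, 72 higher and 119 lower, with 0 of the 9 genes among them. The labels do not say that a pool number marks a shared day, and the deviations of arrays that share a number had a correlation of 0.032 over all probe sets tested.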

Other observations

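The chromosomal surroundings of the genes were looked at after their values were seen, taking the 25 protein-coding RefSeq genes on each side and the named, tested loci among them. Around ATG8G on chromosome 3, 22 loci were tested, 17 had a log2 change above 0, and their median was 0.19. One of them was called, AT3G60420, 20 genes away, with a log2 change of 1.95 ± 0.39 (SE; limma's adjusted p = 0.0104). Around ATG8D on chromosome 2, 14 loci were tested with a median of 0.07, and AT2G05540, 5 genes away, was called at -1.16 ± 0.21 (SE; limma's adjusted p = 0.00367). Around the other 7 genes limma called 0 of the tested neighbours, with medians from -0.09 to 0.05. That count includes ATG1A and ATG8I, on the same chromosome as ATG8G. Around ATG1A 23 loci had a median of 0.02, and around ATG8I 26 loci had a median of 0.05. Over all 16960 probe sets tested, 55.0% had a log2 change above 0, the median was 0.03 and 0.613% were called. No test compared these neighbourhoods with others.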
